A study of Mus musculus with 6 samples.

Results

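The Wnt ligands, Frizzled receptors and R-spondins examined here are 30 genes, taken as a list of names: 14 Wnt ligands, 10 Frizzled receptors, the co-receptors *Lrp5* and *Lrp6* with β-catenin (*Ctnnb1*), and 3 R-spondins. All 30 were on the array, with 62 probe sets that the platform's annotation ties to 1 of these symbols only, out of 18193 genes measured in all. Where a gene has several probe sets, the brightest on average across the 6 arrays represents it. Of the 30 genes, 10 have 1 probe set and 20 have several.

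RNA came from the dorsal midbrain of C57BL/6 mouse embryos at embryonic day 10.5 (E10.5), with 3 samples per group and 1 Affymetrix A430 array per sample. The *Ezh2* cko embryos were *Wnt1-Cre*+/*Ezh2*[SET]lox/lox, so that Cre made under the control of *Wnt1* regulatory sequence removes the part of *Ezh2* encoding the SET domain, the catalytic part of this histone H3 methyltransferase of Polycomb repressive complexes. Controls are labelled WT, whereas the study's methods describe control littermates of 2 kinds, some without Cre (*Wnt1-Cre*-/*Ezh2*[SET]lox/lox) and some with Cre and 1 intact allele (*Wnt1-Cre*+/*Ezh2*[SET]wt/lox), and no source assigns the 3 control samples to a kind. Both groups therefore carry at least 1 floxed allele by the methods. Each group came from 2 litters, which are not assigned to samples either, and p-values measure the spread between these samples only. *Wnt1-Cre* is also active in neural crest. At a later stage than E10.5, the study describes recombination as full in the caudal and partial in the rostral dorsal midbrain. The *Ezh2* cko tissue can therefore hold cells that kept *Ezh2*.

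Wnt ligands are secreted glycoproteins that bind Frizzled receptors at the cell surface. Together with Lrp5 or Lrp6 they protect β-catenin from destruction, and β-catenin then acts with Tcf/Lef factors in the nucleus, while other ligand and receptor pairs act without β-catenin on cell polarity and movement. R-spondins strengthen the response by keeping Frizzled receptors on the surface. In the midbrain, *Wnt1* is known for its expression along the roof plate and at the border with the hindbrain, where it is needed for this brain region to form.

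The starts of several of these genes are shown because Polycomb complexes are known to act at promoters rich in CpG dinucleotides. Below are the 250 bases before the annotated start, from RefSeq on GRCm38.p6 and all on the plus strand, with each CpG in capitals, for the 3 genes with a window among those whose log2 difference was at least 0.4 in a well detected probe set and whose groups did not overlap, and for *Wnt8b* as a window with few CpG. They lie at chr15:98789607-98789856 for *Wnt1*, at chr4:137277385-137277634 for *Wnt4*, at chr4:124986180-124986429 for *Rspo1* and at chr19:44493222-44493471 for *Wnt8b*.
Wnt1: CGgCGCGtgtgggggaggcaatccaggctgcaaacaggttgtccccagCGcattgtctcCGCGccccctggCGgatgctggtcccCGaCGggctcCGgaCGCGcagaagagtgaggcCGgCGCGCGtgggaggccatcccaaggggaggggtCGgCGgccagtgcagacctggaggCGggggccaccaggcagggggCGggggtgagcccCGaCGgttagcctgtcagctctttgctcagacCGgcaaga
Wnt4: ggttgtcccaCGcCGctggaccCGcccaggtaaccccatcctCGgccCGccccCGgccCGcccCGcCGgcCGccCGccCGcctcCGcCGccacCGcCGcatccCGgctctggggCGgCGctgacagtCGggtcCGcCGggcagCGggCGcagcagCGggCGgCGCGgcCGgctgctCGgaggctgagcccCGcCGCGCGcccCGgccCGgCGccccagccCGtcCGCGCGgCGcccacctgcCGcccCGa
Rspo1: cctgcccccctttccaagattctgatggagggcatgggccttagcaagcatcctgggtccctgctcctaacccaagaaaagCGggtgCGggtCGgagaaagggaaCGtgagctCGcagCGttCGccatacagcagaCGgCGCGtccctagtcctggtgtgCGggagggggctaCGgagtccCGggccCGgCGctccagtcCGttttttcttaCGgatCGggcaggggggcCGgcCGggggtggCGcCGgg
Wnt8b: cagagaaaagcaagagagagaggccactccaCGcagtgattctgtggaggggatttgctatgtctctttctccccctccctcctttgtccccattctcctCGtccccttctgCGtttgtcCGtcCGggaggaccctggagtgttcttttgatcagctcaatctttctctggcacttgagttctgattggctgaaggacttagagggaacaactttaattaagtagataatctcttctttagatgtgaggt

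The *Wnt1* window holds 23 CpG, the *Wnt4* window 44, the *Rspo1* window 22 and the *Wnt8b* window 5. Among 32536 such windows of all genes the median is 6 CpG, and 99.5% of them hold fewer than *Wnt4* does. Windows were found for 19 of the 30 genes, 23 windows in all, with a median of 28 CpG, and 18 of the 19 genes had a window above the median of all genes. Windows rich in CpG also stood at genes with negative or small log2 differences. Examples are *Fzd9* (42 CpG, -0.22), *Wnt2b* (36 CpG, -0.26) and *Ctnnb1* (43 CpG in 1 window, 0.03). A link between CpG and the differences was not tested. No window was used for *Wnt5a*, *Wnt7b*, *Wnt10a*, *Fzd2*, *Fzd3*, *Fzd6*, *Fzd8*, *Lrp5*, *Lrp6*, *Rspo2* and *Rspo3*. Searched on both strands, the GC box GGGCGG, the letters bound by Sp1, stood in 17 of the 23 windows (73.9%), against 33.0% of all windows. The CCAAT box CCAAT stood in 7 (30.4% against 33.8%), TATAAA in 3 of 23 (12.3% of all windows) and the core of the Tcf/Lef motif, CTTTGA, also in 3 of 23 (13.9% of all windows). These counts describe the letters only, and windows of 1 gene can overlap.

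The study reported from antibody staining that Ezh2 protein was lost in the midbrain from E10.5. On these arrays, targeting of *Ezh2* could not be checked. Its probe set read 11.69, 11.76 and 11.66 (log2 signal) in the controls against 11.79, 11.74 and 11.72 in the *Ezh2* cko, a log2 difference of 0.05 (95% interval -0.11 to 0.22, adjusted p = 0.918), and where it lies relative to the deleted part is not given in the sources used here. All values below are log2 signals after RMA. On this scale no value stands for a silent gene, and brightness also reflects the probes, so every probe set was compared only with itself across arrays. Differences are *Ezh2* cko minus control from limma with its standard error (SE), and adjusted p-values are over all 45037 probe sets. Array medians lay between 5.68 and 5.72.

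Among the 30 genes, the receptor gene *Fzd6* rose in the *Ezh2* cko and no gene fell (adjusted p under 0.05), while 29 did not pass. Of all 18193 genes, 0.297% were called higher and 0.0055% lower. The groups did not overlap for 9 of the 30: *Wnt1*, *Wnt3*, *Wnt4*, *Wnt5b*, *Fzd4*, *Fzd6*, *Rspo1* and *Rspo3* were higher on every *Ezh2* cko array than on any control array, and *Lrp6* was lower. That is 26.7% of the list higher and 3.33% lower, where 7.52% of all genes were separated upwards and 7.88% downwards. At an unadjusted p under 0.05, 8 of the 30 were higher and 0 lower (6.12% and 2.75% of all genes). Log2 differences were positive for 19 of the 30 (63.3%, against 43.0% of all genes), with a median of 0.10 against -0.02 over all genes. An absolute difference of at least 0.4 was reached by 6 of the 30, all with higher signal (*Wnt1*, *Wnt3*, *Wnt4*, *Fzd5*, *Fzd6* and *Rspo1*), and by 3.02% of all genes in either direction. In bulk tissue, a change in the number of cells that express a gene and a change in RNA per cell cannot be told apart.

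**Figure D1:**
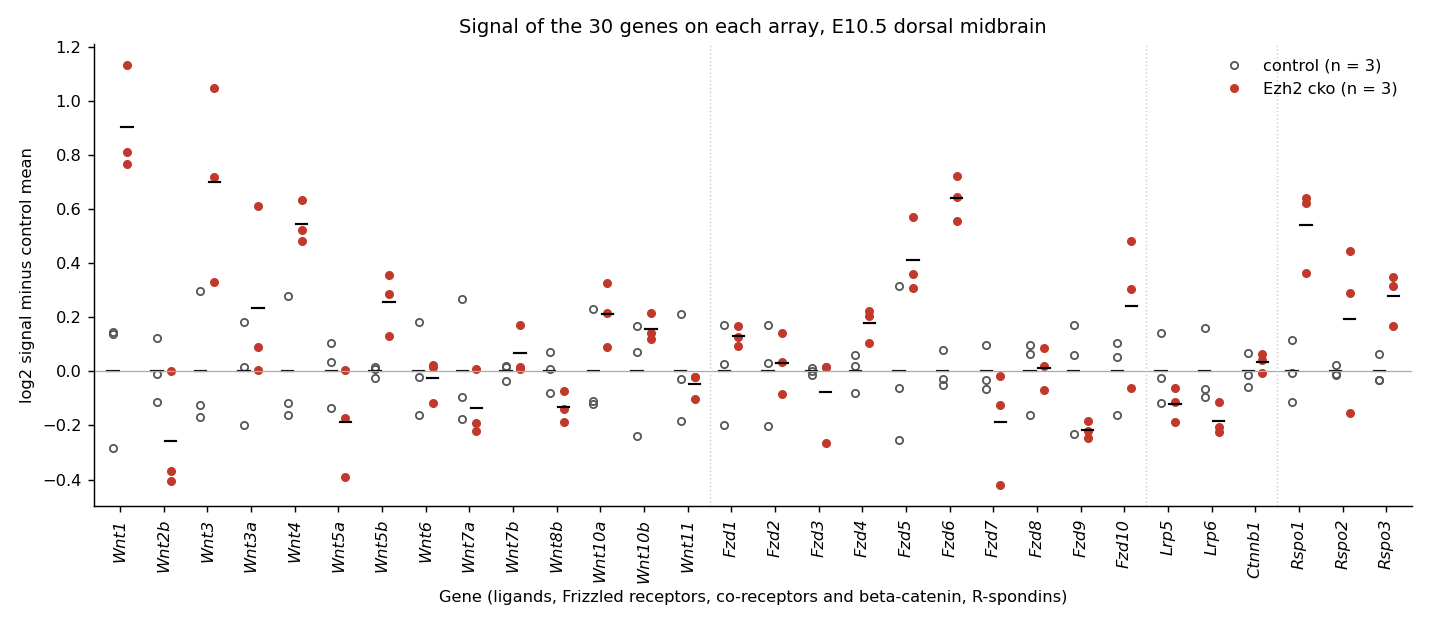
Log2 signal of each of the 30 genes on each array minus the mean of the 3 controls (vertical axis, log2 units), with genes in order of role on the horizontal axis; open circles are controls, filled circles *Ezh2* cko, and short bars are group means. The *Ezh2* cko circles of *Wnt1*, *Wnt4*, *Fzd6* and *Rspo1* stand clear above the control circles, and those of most other genes lie among them.

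The largest differences among the 30 genes were those of ligands. *Wnt1* read 7.65, 7.64 and 7.22 in the controls against 8.63, 8.27 and 8.31 in the *Ezh2* cko. The groups were separated by 0.62 log2 units, and the third control was the lowest of all. The difference was 0.90 (SE 0.14, 95% interval 0.58 to 1.23), or 1.87-fold, and missed the threshold (adjusted p = 0.0712). *Wnt1* has 1 probe set and was the only gene of the 30 past the fold and unadjusted p thresholds of the study's methods, which 0.374% of all genes passed upwards and 0.033% downwards. All *Ezh2* cko embryos carry the *Wnt1-Cre* transgene while Cre carriage of each control is not known, so at *Wnt1* the transgene and the loss of *Ezh2* cannot be told apart.

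*Wnt4*, a ligand best known from kidney and gonad development, read 7.78, 7.35 and 7.39 in the controls against 8.03, 7.99 and 8.14 in the *Ezh2* cko. Although 1 control stood close to the *Ezh2* cko arrays, none reached them. The difference was 0.55 (SE 0.12, interval 0.27 to 0.82, adjusted p = 0.214). Its second probe set gave 6.39, 6.20 and 6.31 against 6.94, 6.71 and 6.78, also without overlap, with a difference of 0.51 (adjusted p = 0.107). In a separate fit of 1 mean per gene, adjusted over 18193 genes rather than 45037 probe sets, *Wnt4* stood at 0.53 (adjusted p = 0.0499). There *Wnt1*, with a single probe set and an unchanged value, also had a lower adjusted p (0.0276 against 0.0712). That fit differs in the number of rows tested and in the spread that limma estimates over all rows. What made *Wnt4* pass was not tested.

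*Wnt3*, a ligand of the β-catenin branch, was dim, below the median of all probe sets. It read 4.54, 4.49 and 4.96 in the controls against 4.996, 5.38 and 5.71 in the *Ezh2* cko, so that the highest control and the lowest *Ezh2* cko array were 0.03 apart. The difference was 0.70 (SE 0.19, interval 0.27 to 1.13, adjusted p = 0.349), and the probe set is of a kind whose probes may also detect other transcripts. *Wnt5b*, mostly known for signalling without β-catenin, read 7.41, 7.40 and 7.37 in the controls against 7.75, 7.68 and 7.53 in the *Ezh2* cko. All 3 controls lay within a narrow band below them, and the difference was 0.26 (SE 0.08, interval 0.07 to 0.45, adjusted p = 0.474). This probe set is of the same kind as that of *Wnt3*. The other probe set of *Wnt5b*, not of that kind, differed by 0.25 with overlapping groups (unadjusted p = 0.0723 in limma).

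The remaining 10 ligands overlapped between groups, with log2 differences from -0.26 to 0.23 (adjusted p 0.697 to 0.976). The dorsal midline ligand *Wnt3a* stood at 0.23, *Wnt10a* at 0.21 and *Wnt10b* at 0.16, and *Wnt7b*, a ligand of brain blood vessel growth, at 0.07. Negative values were found for *Wnt2b* (-0.26), *Wnt5a* (-0.19), *Wnt7a* (-0.13), *Wnt8b* (-0.13), *Wnt11* (-0.05) and *Wnt6* (-0.03). For *Wnt5a*, which directs convergent tissue movements, all 4 probe sets were negative, and so were all 3 of *Wnt7a*. In *Wnt8b*, a ligand of the forebrain midline, the 3 probe sets did not share a direction. The dimmest of them read 3.83, 3.84 and 3.74 in the controls against 4.13, 4.21 and 4.17 in the *Ezh2* cko, a difference of 0.36 with no overlap (adjusted p = 0.171), whereas another stood at -0.17. Over the 14 ligands, 8 differences were positive, the median was 0.11, and none was called (4 higher and 0 lower at an unadjusted p under 0.05).

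Of the Frizzled receptors, *Fzd6*, which acts with *Fzd3* in planar cell polarity and neural tube closure, read 8.56, 8.45 and 8.43 in the controls against 9.20, 9.03 and 9.12 in the *Ezh2* cko. Both groups were tight, and the gap between them was 0.47. The difference was 0.64 (SE 0.08, interval 0.45 to 0.82), or 1.56-fold (adjusted p = 0.0273). Of its other probe sets, both dimmer, 1 read 4.71, 4.47 and 4.52 against 4.77, 4.84 and 4.97 (0.29, adjusted p = 0.482) and 1 gave -0.09 (adjusted p = 0.878). The call was lost without any 1 of the 6 arrays (0.60 to 0.68, adjusted p 0.0716 to 0.132), and in the fit of 1 mean per gene the value over its 3 probe sets was 0.28 (adjusted p = 0.212).

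For *Fzd3*, its closest relative in sequence and function, the 6 probe sets were all negative, from -0.16 to -0.03, and the representing one stood at -0.08 (interval -0.29 to 0.14, adjusted p = 0.902). Within each array, the log2 signal of *Fzd6* minus that of *Fzd3* was higher in all 3 *Ezh2* cko samples than in any control, by 0.72 on average. The exact two-sided permutation test gave p = 0.1, the smallest that 3 against 3 samples allow (0.325 after adjustment over 13 pairs of related genes). Separation of this kind was seen in 3 other pairs: *Wnt5b* against *Wnt5a* (0.44), *Fzd4* against *Fzd9* (0.39) and *Fzd1* against *Fzd7* (0.32), each with the same p. The other 9 pairs overlapped. *Fzd6*, *Wnt5b* and *Fzd4* were already separated by themselves, so their pairs are no independent support. *Fzd1* and *Fzd7* also occur in other pairs compared, and the permutation p of their pair was likewise 0.325 after adjustment.

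*Fzd4*, the receptor for Norrin in retinal vessels, read 6.59, 6.55 and 6.45 in the controls against 6.75, 6.63 and 6.73 in the *Ezh2* cko. The groups were 0.04 apart, and the difference of 0.18 had an interval reaching 0.00 (adjusted p = 0.671). Its other probe sets gave 0.02 and 0.03. *Fzd5*, a receptor of eye development, read 5.87, 6.06 and 6.43 in the controls against 6.69, 6.43 and 6.48 in the *Ezh2* cko. Here the highest control overlapped the lowest *Ezh2* cko array, with a difference of 0.41 (SE 0.14, interval 0.08 to 0.74, adjusted p = 0.536) and of 0.02 in the other probe set. *Fzd10*, *Fzd1*, *Fzd2* and *Fzd8* had positive values (0.24, 0.13, 0.03 and 0.01), and *Fzd9* and *Fzd7* negative ones (-0.22 and -0.19), all with overlapping groups. Across the 10 receptors, 7 differences were positive and the median was 0.08.

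**Figure D2:**
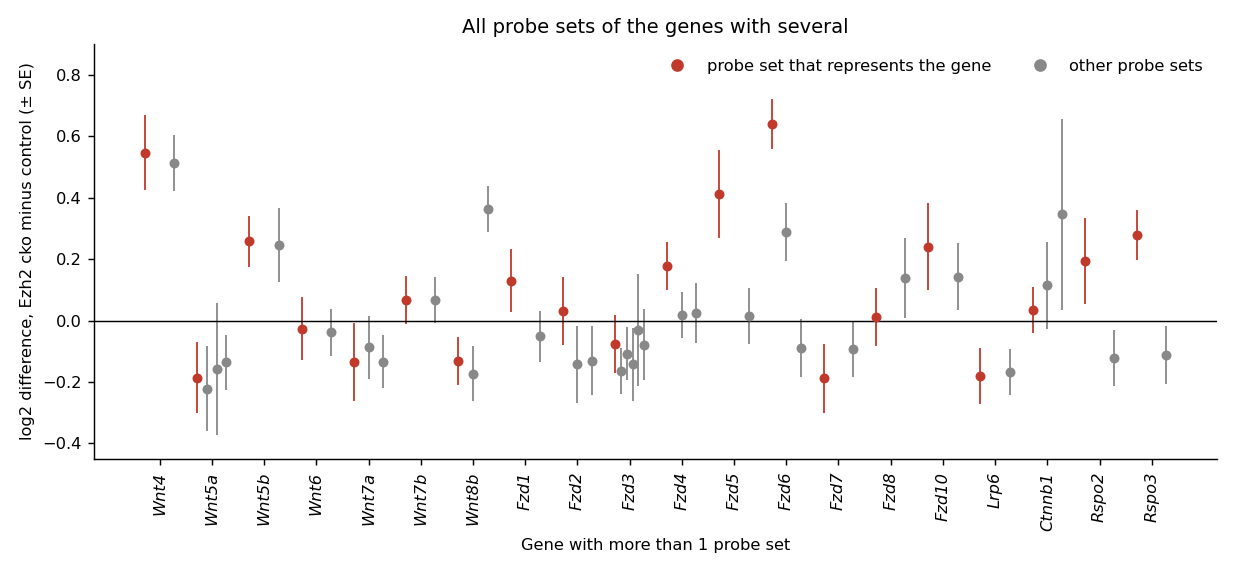
Log2 difference (*Ezh2* cko minus control, vertical axis) with its standard error for every probe set of the 20 genes that have more than 1; the probe set representing the gene is in red and the others in grey. All probe sets of *Wnt4* lie above 0 and all of *Wnt5a* and *Fzd3* below it, whereas those of *Fzd6*, *Wnt8b* and *Rspo3* lie on both sides.

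For 14 of the 20 genes with several probe sets, every probe set had the same sign, 8 positive and 6 negative. Both signs occurred in *Fzd1*, *Fzd2*, *Fzd6*, *Rspo2*, *Rspo3* and *Wnt8b*. Over all 62 probe sets, 31 differences were positive and 31 negative, with a median of -0.01, and 1 was called higher and 0 lower (0.184% and 0.00444% of the 45037 probe sets tested). Positive differences thus made up 19 of the 30 probe sets that represent the genes and 31 of all 62.

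All 3 R-spondins had positive values, with a median of 0.28, and none was called (2 higher and 0 lower at an unadjusted p under 0.05). *Rspo1* read 9.21, 9.44 and 9.32 in the controls against 9.96, 9.69 and 9.94 in the *Ezh2* cko. A gap of 0.25 separated the groups, and the difference was 0.54 (SE 0.10, interval 0.31 to 0.78), or 1.46-fold (adjusted p = 0.130, 1 probe set). *Rspo3* read 8.41, 8.42 and 8.51 in the controls against 8.80, 8.61 and 8.76 in the *Ezh2* cko. Its groups were 0.10 apart with a difference of 0.28 (SE 0.08, interval 0.09 to 0.46, adjusted p = 0.410), and its dimmer probe set gave -0.11. For *Rspo2* the arrays read 7.04, 7.08 and 7.04 in the controls against 7.50, 7.34 and 6.90 in the *Ezh2* cko. The third *Ezh2* cko array lay below all controls, so that 0.19 (interval -0.13 to 0.52, adjusted p = 0.818) was within the spread, and the other probe set stood at -0.12.

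The co-receptors and β-catenin did not pass in either direction, also at an unadjusted p under 0.05. *Lrp6*, the main Wnt co-receptor of the embryo, read 9.06, 9.31 and 9.09 in the controls against 9.04, 8.95 and 8.93 in the *Ezh2* cko. The groups were 0.02 apart, and the difference was -0.18 (interval -0.39 to 0.03, adjusted p = 0.718). The second *Lrp6* probe set, with 6.52, 6.56 and 6.44 against 6.30, 6.37 and 6.35, was also lower on every *Ezh2* cko array (-0.17, adjusted p = 0.672). *Lrp5* read 5.25, 5.08 and 4.99 in the controls against 4.99, 4.91 and 5.04 in the *Ezh2* cko, a difference of -0.12 (adjusted p = 0.821) between overlapping groups. *Ctnnb1*, which encodes β-catenin, read 13.95, 13.90 and 14.03 in the controls against 13.95, 14.00 and 14.02 in the *Ezh2* cko. It had the smallest spread within groups of the 30 genes (pooled SD 0.0521, against a median of 0.147), and its difference of 0.03 had an interval of -0.14 to 0.20 (adjusted p = 0.953). The other *Ctnnb1* probe sets gave 0.11 and 0.35 with wide spread.

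**Figure D3:**
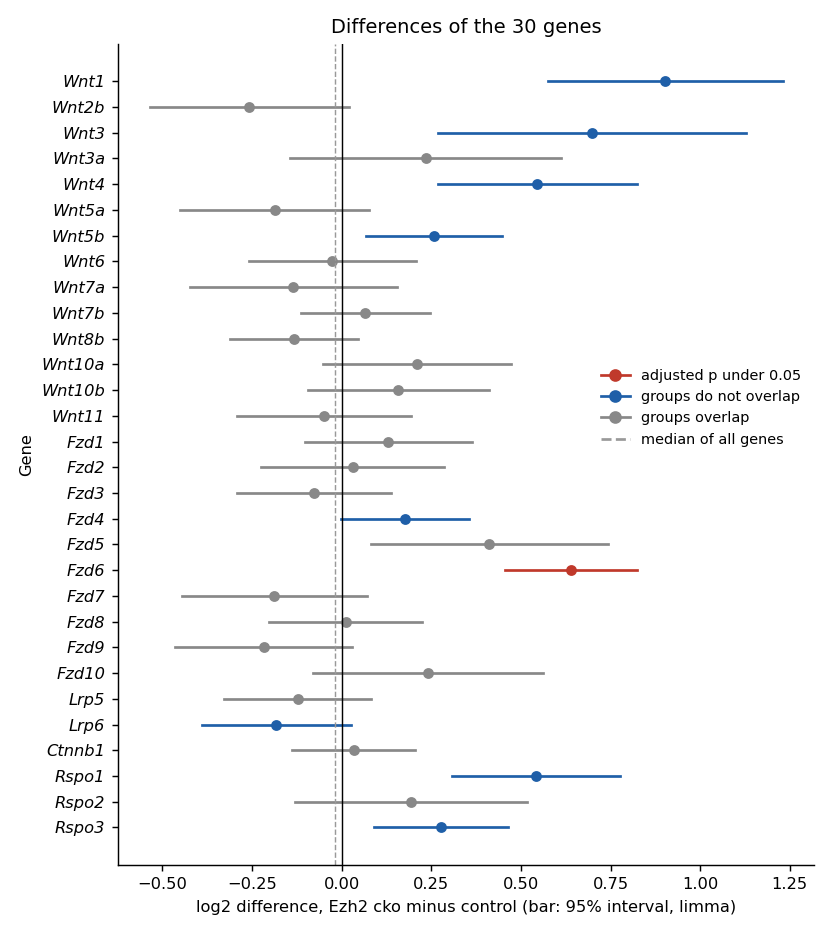
Log2 difference (*Ezh2* cko minus control) of each of the 30 genes with its 95% interval from limma; red marks the adjusted p under 0.05, blue other genes whose groups do not overlap, grey overlapping groups, and the dashed line the median of all genes, -0.02. The intervals of 8 genes lie wholly above 0 and none lies wholly below it.

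Relative to the control means, the median over the 30 genes was 0.05, 0.07 and 0.08 on the *Ezh2* cko arrays and 0.01, 0.01 and -0.04 on the controls. Where groups are separated, leaving out an array cannot turn the sign and shows only how far the size depends on that array. Leaving out each array in turn gave 0.76 to 0.98 for *Wnt1*, 0.47 to 0.69 for *Wnt4*, 0.49 to 0.63 for *Rspo1*, 0.24 to 0.33 for *Rspo3*, 0.21 to 0.32 for *Wnt5b* and 0.52 to 0.88 for *Wnt3*.

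**Figure D4:**
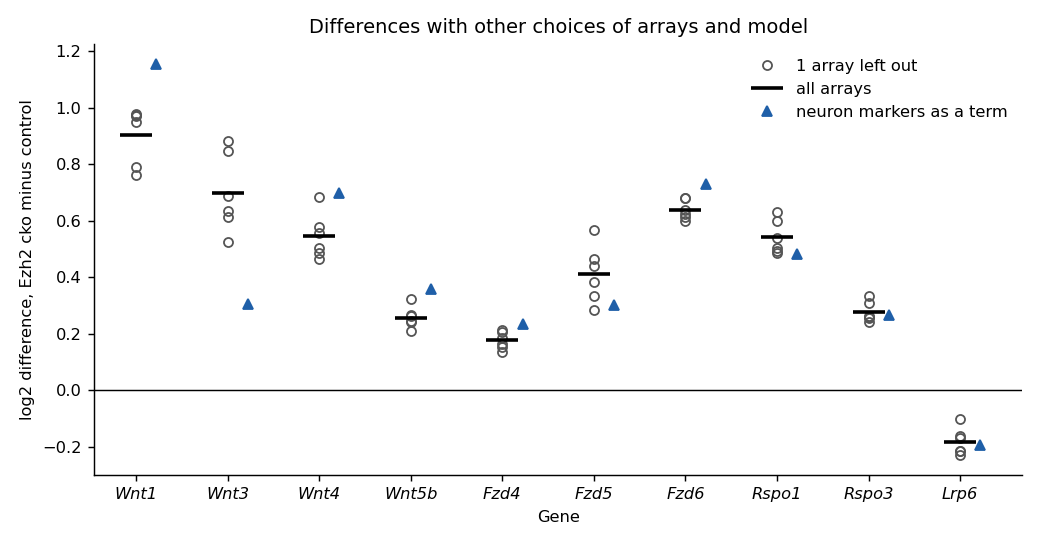
Log2 difference (*Ezh2* cko minus control, vertical axis) of the 10 genes given by array that had separated groups or a difference of at least 0.4; black bars show all arrays, open circles each fit without 1 array, and blue triangles the fit that includes the mean neuron marker deviation as a further term. The circles of *Wnt1* span 0.76 to 0.98 and those of *Fzd6* 0.60 to 0.68, and the triangle of *Wnt3* lies at 0.31.

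Several ligand genes lie side by side. *Wnt10b* and *Wnt1* are neighbouring protein-coding genes on chromosome 15 (log2 differences 0.16 and 0.90), *Wnt9b* and *Wnt3* on chromosome 11 (-0.12 and 0.70), *Wnt3a* and *Wnt9a* also on chromosome 11 (0.23 and 0.51), and *Wnt6* and *Wnt10a* on chromosome 1 (-0.03 and 0.21). No test was made of the differences within these pairs.

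Other genes of the pathway were taken from 5 lists with 52 genes. None passed the test, where 0.297% of all genes were called higher and 0.0055% lower. At an unadjusted p under 0.05, 6 were higher and 2 lower (6.12% and 2.75% of all genes). Differences were positive for 31 of 52 (59.6%, against 43.0% of all genes), with a median of 0.03 against -0.02. Groups were separated upwards for 9 (17.3%) and downwards for 4 (7.69%), against 7.52% and 7.88% of all genes. Among 7 ligand genes outside the 30, *Wnt9a* read 8.13, 8.08 and 8.05 in the controls against 8.64, 8.44 and 8.70 in the *Ezh2* cko, well separated, with a difference of 0.51 (adjusted p = 0.104). *Ndp*, which encodes Norrin, stood at 0.14 (adjusted p = 0.763). Among 7 genes for secretion and release, where 5 were positive, *Notum*, a secreted enzyme that inactivates Wnt proteins, stood at 0.29 (adjusted p = 0.802) and the proteoglycan gene *Gpc3* at 0.25 (adjusted p = 0.511).

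Of 5 genes for R-spondin receptors and Frizzled turnover, 4 were positive. The receptor gene *Lgr6* stood at 0.16 (adjusted p = 0.702) and the ubiquitin ligase gene *Rnf43*, whose product removes Frizzled receptors from the surface, at 0.14 (adjusted p = 0.829), both dim, with means below the median of all probe sets. *Znrf3*, a related ligase gene above that median, was separated upwards at 0.13 (adjusted p = 0.767). Of 16 genes for alternative receptors and planar polarity, 10 were positive, led by the Wnt5a receptor gene *Ror1* at 0.31 (adjusted p = 0.613) and the polarity gene *Prickle2* at 0.29 (adjusted p = 0.576). Of 17 genes for the β-catenin destruction complex and its partners, 7 were positive. *Amer1*, which brings the complex to the membrane, read 8.70, 8.83 and 8.75 in the controls against 8.60, 8.45 and 8.36 in the *Ezh2* cko, separated downwards at -0.29 (adjusted p = 0.429), and the kinase gene *Csnk1e* stood at 0.22 (adjusted p = 0.713).

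Markers of the tissue and of other cell types were set beside these values as the mean deviation of each list's genes from their means over 6 arrays. The 9 midbrain and isthmus markers were all above the median of all probe sets, with 7 positive differences and a range of -0.14 to -0.03 in the controls against -0.02 to 0.24 in the *Ezh2* cko. The difference of the group means, 0.15, was 0.06 without the first *Ezh2* cko array. Roof plate markers, 5 of 7 measured, ranged from -0.20 to -0.12 in the controls and from 0.05 to 0.23 in the *Ezh2* cko. Of these, *Msx1*, *Msx2*, *Bmp6* and *Zic1* were separated upwards (0.28 to 0.56) and *Lmx1a*, which specifies the roof plate, downwards (-0.16), and none passed the test (4 higher and 0 lower at an unadjusted p under 0.05). *Wnt1*, *Wnt3a* and the R-spondin genes are known roof plate genes, and the part of roof plate content in their values was not tested.

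Neuron markers had 17 of 18 positive differences (median 0.36), with -0.41 to -0.02 in the controls against -0.04 to 0.37 in the *Ezh2* cko. The first control stood apart at the low end, and the difference of the group means, 0.34, was 0.21 without it. With this mean as a further term, an alternative added late, once the data were known, *Wnt1* stood at 1.16, *Wnt4* at 0.70, *Fzd6* at 0.73 (adjusted p = 0.140), *Rspo1* at 0.48 and *Wnt3* at 0.31. The term also raised the value of *Wnt3a* from 0.23 to 0.62 (adjusted p = 0.455), of *Wnt10a* from 0.21 to 0.46 (adjusted p = 0.428) and of *Rspo2* from 0.19 to 0.42 (adjusted p = 0.849), and none of the 30 genes passed with it. With the term, the values of *Wnt1*, *Wnt4* and *Fzd6* were no smaller than without it, and that of *Wnt3* was below its 0.70. The term itself differed between the groups, so this fit cannot divide a value between neuron content and group. Mesenchyme and neural crest markers had 13 of 15 positive differences (-0.34 to 0.02 in the controls, 0.00 to 0.26 in the *Ezh2* cko), and macrophage markers 10 of 10 (-0.44 to 0.09 and 0.01 to 0.25). The first control was the lowest array in both lists as well, and without it the differences of the group means, 0.24 and 0.27, were 0.13 and 0.11. Of 13 markers of surface ectoderm and epithelium, 2 passed the test upwards, the adhesion genes *Epcam* (1.33, adjusted p = 0.00368) and *Cdh1* (0.77, adjusted p = 0.0166). Its differences were 8 positive and 5 negative with a median of 0.04, the splicing regulator gene *Esrp1* (-0.63, adjusted p = 0.276) and the keratin gene *Krt5* (-0.11, adjusted p = 0.793) were separated downwards, and 5 genes were higher and 1 lower at an unadjusted p under 0.05. The list mean ranged from -0.24 to -0.03 in the controls and from 0.11 to 0.14 in the *Ezh2* cko. The ranges of neural progenitor, endothelium and erythroid markers overlapped between groups. So did the ranges given above for neuron, mesenchyme and neural crest, and macrophage markers. No gene of the lists other than epithelium passed in limma. At an unadjusted p under 0.05, 6.12% of all genes were higher and 2.75% lower. By that measure the counts were 9 higher and 0 lower for neurons and 6 and 1 for mesenchyme and neural crest. They were 2 and 1 each for progenitors and for midbrain and isthmus, 2 and 0 for macrophages and 0 for endothelium and erythroid cells. The part of any of these cell types in the values of the 30 genes was not tested, and the neuron term cannot give it.

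**Figure D5:**
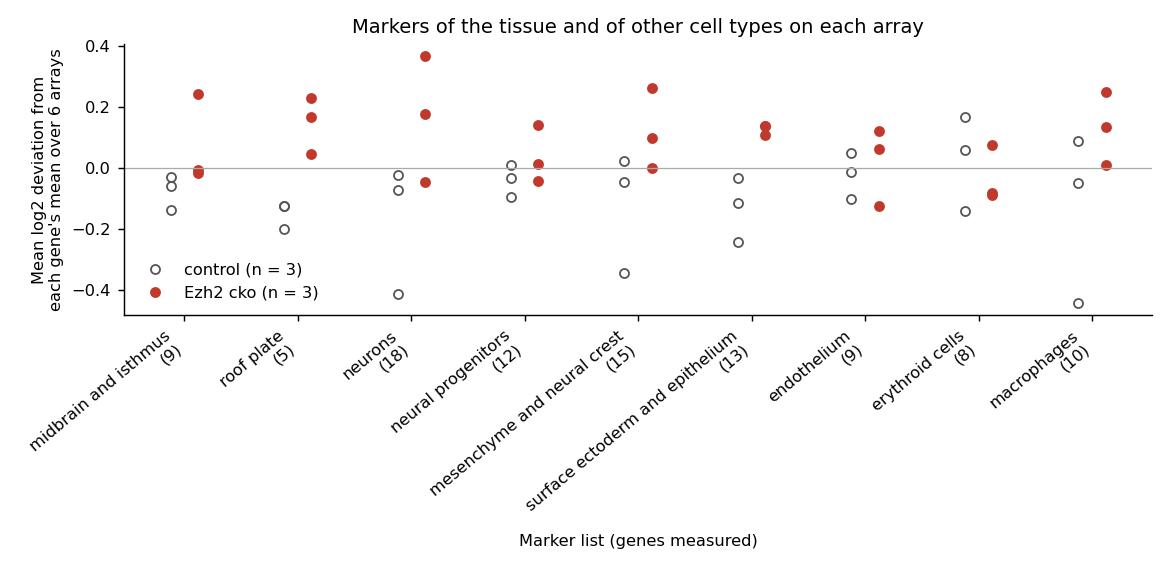
Mean log2 deviation of each marker list on each array (vertical axis) from the means of its genes over 6 arrays, with the number of genes measured under each list's name; open circles are controls and filled circles *Ezh2* cko. The roof plate circles of the *Ezh2* cko, 0.05 to 0.23, lie above those of the controls, -0.20 to -0.12, as do those of surface ectoderm and epithelium.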

How the data were processed

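RNA of 3 control and 3 *Ezh2* cko dorsal midbrains was hybridized to Affymetrix A430 arrays. The authors deposited 1 log2 signal per probe set and array, made with RMA. This method corrects background, brings arrays towards a shared distribution and summarises the probes of a set. The deposited lower and upper quartiles were 4.33 and 8.12 on the first control. On the other arrays they were 4.25 to 4.26 and 8.19 to 8.22. The RMA version is not given in the sources used here. Groups were taken from the labels. The 64 control sets were left out, and 45037 probe sets were fitted in R 4.3.3 by lmFit and eBayes (limma 3.58.1, default prior, no further term), with Benjamini-Hochberg adjustment over all of them and a threshold of 0.05. The platform's annotation gives 1 symbol for 34945 probe sets, several for 932 and none for 9160, and 34741 were matched by Entrez identifier to RefSeq genes on GRCm38.p6, which also gave promoter windows and gene order. Signals carry no depth, and the number of arrays limits the precision.

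The 30 genes, the pathway lists and the marker lists were chosen with earlier results of these data known. Values by array are given for genes with a probe set past the adjusted p, with separated groups or with an absolute log2 difference of at least 0.4, and for *Ctnnb1*, *Lrp5*, *Lrp6* and the R-spondins. From each pathway list the 2 genes with the largest absolute difference are named. The values of *Wnt8b* and *Fzd6* at their other probe sets and of the gene *Znrf3* and the markers *Epcam*, *Cdh1*, *Esrp1*, *Krt5* and those of the roof plate were added after they were seen. Alternatives were cyclic loess, median centring or a further quantile normalization of the values, a dim-probe filter, removal of potentially cross-hybridising sets (_x_at and _s_at), array weights, a trended and robust prior, the methods' t-test and threshold, a block for the replicate number, each array left out, other choices of probe set and, added after seeing the data, a term for neuron markers. The fit was tested on simulated data.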

Additional observations from a re-analysis of the deposited data

How the results depend on the processing

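Over 18 alternatives, the 30 genes gave 533 log2 differences, of which 500 kept their direction and their side of the threshold, 10 lost and 3 gained a call and 20 turned sign, in 9 genes. Gained calls were *Wnt1* with the trended and robust prior (0.90, adjusted p = 0.0393) and in the fit of 1 mean per gene (adjusted p = 0.0276), and *Wnt4* in that fit (0.53), which tested 18193 genes in place of 45037 probe sets. *Wnt1* has 1 probe set and an unchanged value there, but its unadjusted p in limma also fell, from 0.00018 to 9.76e-05. That fit differs both in the number of rows tested and in the rows from which the prior was estimated. Which of these made either gene pass was not tested. All 10 lost calls were of *Fzd6*, 6 of them by leaving out 1 array. Without 1 array, 0 of the 30 genes were called in any fit, 18 to 20 had a positive difference (median 0.0695 to 0.105), 20 to 44 probe sets were called higher and 1 to 4 lower against 83 and 2 with all arrays, and 1 to 2 epithelial markers were called higher. Sign turns in these fits were within -0.0683 to 0.0605 for *Fzd8*, -0.108 to 0.0653 for *Wnt6*, -0.0707 to 0.117 for *Fzd2*, -0.124 to 0.0165 for *Fzd3* and -0.141 to 0.0583 for *Wnt11*.

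Replicate numbers did not pair the samples (correlations of deviations between same-numbered samples 0.06, -0.20 and 0.06). With the replicate number as a block, *Fzd6* missed the threshold (0.64, adjusted p = 0.0694), so that 0 of the 30 genes were called, with 56 probe sets called higher and 3 lower, and 1 epithelial marker was called higher in place of 2. With the neuron markers as a term, 6 probe sets were called higher and 1 lower, 0 of the 30 genes were called, and the sign turned for *Wnt6* (0.11), *Wnt11* (0.12), *Fzd1* (-0.0169), *Fzd2* (-0.19), *Fzd3* (0.0209), *Fzd10* (-0.0886) and *Ctnnb1* (-0.0103). The methods' t-test with Benjamini-Hochberg adjustment called 0 probe sets in either direction and 0 of the 30 genes (*Fzd6* adjusted p = 0.385). Without adjustment it gave 1467 probe sets higher and 1558 lower at p under 0.05, with 7 of the 30 genes higher and 0 lower, and at the methods' threshold 59 and 2 probe sets with 1 of the 30 genes. In limma, that threshold gave 108 probe sets higher and 9 lower. The trended prior called 5 probe sets lower and 2 of the 30 genes. The median of the 30 genes, 0.10, was 0.14 with the filter on dim probe sets, which 24 passed, 0.0663 without probe sets that may cross-hybridise, which leaves no value for *Wnt3*, and 0.17 with the probe set of largest variance. That choice gave *Wnt8b* 0.36 and *Fzd2* -0.14, the mean over probe sets gave *Wnt8b* 0.0192 and *Fzd2* -0.0805 and 2 called genes, and quantile normalization again gave *Fzd8* -0.0264. The cause of these shifts was not tested.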
